A study of Mus musculus with 6 samples.

Results

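The genes described here are 10 genes of the CAP protein superfamily: the cysteine-rich secretory protein genes Crisp1, Crisp2, Crisp3 and Crisp4, the related Crispld1 and Crispld2, and Glipr1, Glipr2, Glipr1l1 and Pi16. They were found by symbol among the 55331 genes of the authors' deposited Cuffdiff table, each in a single row, and 8 of the 10 were among the 22048 genes that Cuffdiff tested. The members were chosen from the measured rise of Crisp1, the higher FPKM and the deposited test in Ptbp1_cKO, so the values of Crisp1 are a description and support nothing further.

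CAP proteins share a compact secreted domain with conserved disulfide bonds. CRISP proteins carry in addition a cysteine-rich tail that can modulate ion channels. In the male tract CRISP2 is made by spermatids and stored in the acrosome and tail, whereas CRISP1 and CRISP4 are known as androgen-dependent secretions of the epididymis that coat passing sperm, and CRISP3 is known chiefly from the salivary gland.

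Polyadenylated RNA of whole testes from mice aged 35 days and of mixed strain was sequenced in 6 libraries. The 3 control libraries, titled WT, came from mice of genotype Ptbp1fl/fl without Cre, and the 3 Ptbp1_cKO libraries, titled PTBP1_KO, from Ptbp1fl/fl; Amh-Cre+/- mice, so both groups carried the floxed allele. Amh-Cre acts in Sertoli cells, the somatic cells that nurse the germ cells, and the study asked what the splicing regulator PTBP1 does there. No group carried Amh-Cre without the floxed allele, so an effect of the transgene cannot be told apart from one of the deletion. Whether the 3 libraries of a group are 3 animals is not stated in the labels. The authors' table gives 1 value per group in FPKM, fragments scaled for transcript length and library size, and no value per library, so levels are printed without SD and the overlap of the groups is not known. FPKM is a level per transcript length and can be compared between genes.

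Crisp1 and Crisp3 are close neighbours and near copies in sequence. On the reverse strand of chromosome 17 (mm10) Crisp3 lies at 40221777 to 40242288 and Crisp1 at 40293758 to 40319207, with 51.5 kb between them. Their promoter windows, from 250 bases before to 50 after the start, are shown because these windows hardly differ while the levels of both genes did. They come from RefSeq on GRCm38.p6 (chr17:40319158-40319457 and chr17:40242239-40242538, minus strand), 5′ to 3′, with the differing bases in capitals.
Crisp1: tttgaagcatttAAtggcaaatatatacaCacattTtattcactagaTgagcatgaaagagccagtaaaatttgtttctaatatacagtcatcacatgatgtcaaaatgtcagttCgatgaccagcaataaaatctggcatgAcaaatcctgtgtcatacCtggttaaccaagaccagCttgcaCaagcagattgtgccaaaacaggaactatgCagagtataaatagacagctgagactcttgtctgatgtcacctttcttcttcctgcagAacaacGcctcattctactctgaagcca
Crisp3: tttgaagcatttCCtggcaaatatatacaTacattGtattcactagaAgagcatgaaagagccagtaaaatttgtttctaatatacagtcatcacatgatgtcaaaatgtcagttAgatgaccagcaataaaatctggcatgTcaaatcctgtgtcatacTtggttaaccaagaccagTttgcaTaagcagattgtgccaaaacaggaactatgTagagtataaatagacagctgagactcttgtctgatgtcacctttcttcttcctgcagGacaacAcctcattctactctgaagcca
The windows matched at 287 of 300 positions (95.7%) with no gap. Both hold the TATA box letters TATAAA from position 220, counted from the 5′ end of the window. Those letters were searched on both strands and occur in 13.6% of 32851 promoter windows of the same length and in 3 of the 8 member windows, the third being Crisp2. The androgen receptor half-site letters AGAACA occur at position 271 of the Crisp1 window, within the transcribed part, and in 19.0% of all windows. They are in 3 of the 8 member windows, the others being Crisp4, at or near 0 FPKM in both groups, and Pi16, with the lower value in Ptbp1_cKO, each on the reverse strand. In Crisp3 the difference A273G (the Crisp1 base, the position, the Crisp3 base) falls inside that stretch, and the Crisp3 window holds no AGAACA on either strand. These matches are descriptions and not sites shown to be used. The cAMP response element letters TGACGTCA were in none of the 8 member windows and in 1.79% of all windows.

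The coding sequences of the pair are also alike, which bears on how fragments are assigned to each gene. They matched at 89.6% of 711 aligned bases (GENCODE release M21), with a longest identical run of 57 bases, against 74.0% of 700 aligned bases between Crisp1 and Crisp2. The first 150 coding bases are printed with differing bases in capitals, from the start codon onwards.
Crisp1: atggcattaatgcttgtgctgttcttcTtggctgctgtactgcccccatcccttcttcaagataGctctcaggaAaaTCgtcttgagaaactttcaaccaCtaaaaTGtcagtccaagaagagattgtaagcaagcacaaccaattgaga
Crisp3: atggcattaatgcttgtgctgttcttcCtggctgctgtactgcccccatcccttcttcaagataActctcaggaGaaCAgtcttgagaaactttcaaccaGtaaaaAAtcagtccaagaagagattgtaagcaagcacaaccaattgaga
They differ at 8 of the 150 positions. The longest run of identity in the whole coding sequence was 57 bases, against 85 for Glipr1l1 and Glipr1l3. Coding bases are 732 of the 1416 transcript bases of Crisp1 and 723 of the 1417 of Crisp3. The rest of these transcripts, from which fragments can also come, was compared only where the promoter windows reach into it. How the authors' pipeline treated fragments that fit both genes is not given in the sources used here.

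Among the sperm and epididymal CRISP genes, Crisp1 (ENSMUSG00000025431.4), the secretory gene of the epididymis, was at 0.0482 FPKM in control and 5.90 FPKM in Ptbp1_cKO, 123 times the control level. From rank 24842 of 55331 genes in control it moved to rank 9424 in Ptbp1_cKO. In the authors' deposited table its log2 fold change was 6.94 with q = 0.00848, the value shared by all genes at the smallest deposited p, given here without weight because this rise led to the choice of the genes. The depth behind these values can be read from the steps in which low FPKM values move. For its single annotated transcript of 1416 bases, the control value corresponds to about 12.4 fragments in all and the Ptbp1_cKO value to about 1383, figures that cover counting error only. How the 1383 fragments were spread over the 3 Ptbp1_cKO libraries is not known.

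Crisp3, the near copy of Crisp1, was at 0.00332 FPKM in control and 0.00434 FPKM in Ptbp1_cKO. Each value equalled the weight of 1 fragment in 1 library, to within 0.205% in control and 9.19e-04% in Ptbp1_cKO. Crisp3 therefore rested on 1 fragment in each group, and no ratio is given. Cuffdiff did not test it. Of this pair with nearly matching promoters, fragments were assigned almost solely to Crisp1 in both groups. Crisp4, the other epididymal CRISP gene (chromosome 1, 18115191 to 18145902), was listed at 0 in control and at 0.0304 FPKM in Ptbp1_cKO, at most about 14.5 fragments if all came from its longest transcript. It was not tested either, and no ratio was taken against a value of 0.

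Crisp2 (ENSMUSG00000023930.14, chromosome 17, 40764020 to 40807003), the spermatid gene, was the most abundant member by far at 1733 FPKM in control and 1595 FPKM in Ptbp1_cKO. It ranked 20 among all genes in control and 21 in Ptbp1_cKO and held 96.1% of the summed FPKM of the 10 genes in control. The Ptbp1_cKO value was 0.921 times the control value, with unadjusted p = 0.291 and q = 0.952 in the authors' deposited table. Although both lie in a single stretch of chromosome 17, with 444.8 kb between them, Crisp1 and Crisp2 thus stood near opposite ends of the family in control.

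**Figure D1:**
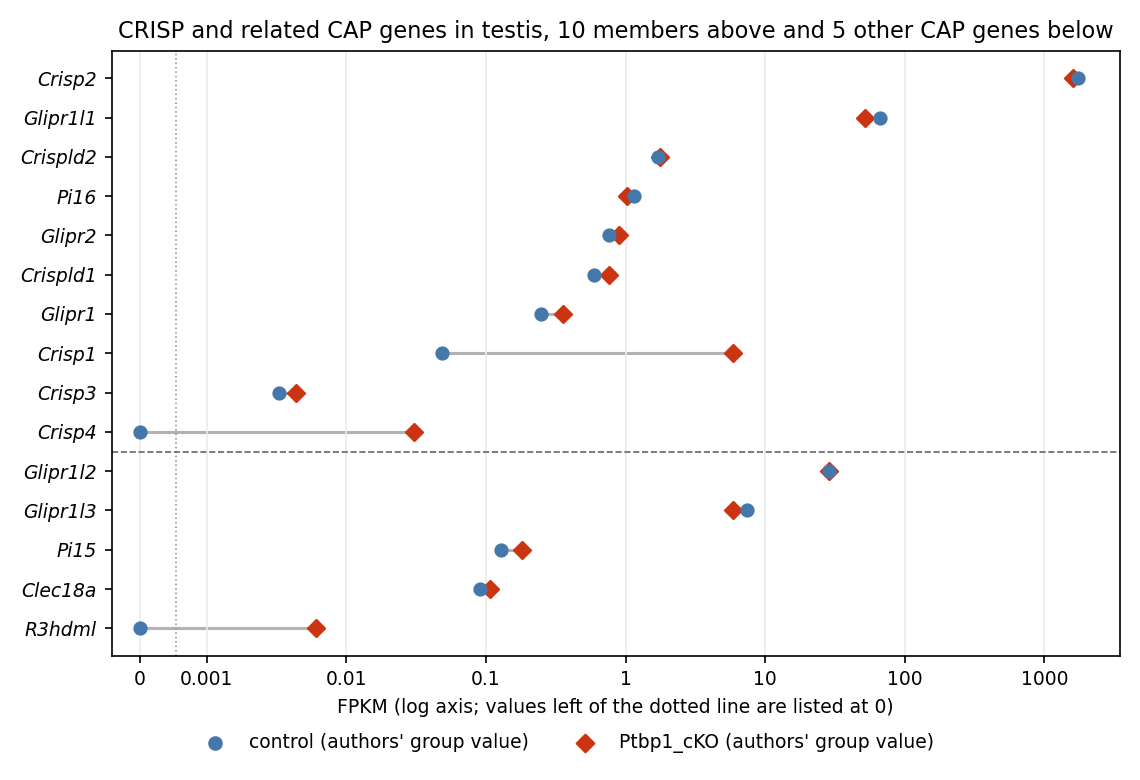
FPKM on a log axis of the 10 members (above the dashed line) and 5 other CAP genes (below it), with circles for control and diamonds for Ptbp1_cKO, each the authors' single group value over 3 libraries, and values listed at 0 left of the dotted line. Crisp1 joins 0.0482 and 5.90 FPKM, while Crisp2 at the far right and the members between 0.2 and 70 FPKM have their symbols side by side.

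The gene cluster of glioma pathogenesis-related proteins on chromosome 10 gave the next most abundant member. Glipr1l1 (112060189 to 112078510), which encodes a surface protein of the sperm head, was at 66.1 FPKM in control and 52.2 FPKM in Ptbp1_cKO, 0.790 times the control value. Its unadjusted p was 0.00265 and its q 0.124 in the authors' deposited table, so it did not pass the threshold of q under 0.05. Its neighbour Glipr1l3, a CAP gene that is not among the members, was at 7.41 FPKM in control and 5.88 FPKM in Ptbp1_cKO, 0.794 times the control value. For Glipr1l3 the authors' deposited table gave unadjusted p = 0.0492 and q = 0.554, so both genes had a similar ratio and neither passed. For Glipr1l2, between the pair, the authors' deposited table gave 28.8 and 28.4 FPKM with q = 0.999.

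The promoter windows of Glipr1l1 and Glipr1l3 are printed because these genes had nearly equal differences. They are from RefSeq on GRCm38.p6 (chr10:112059939-112060238, plus strand, and chr10:112160278-112160577, minus strand), with bases that differ or have no partner in capitals.
Glipr1l1: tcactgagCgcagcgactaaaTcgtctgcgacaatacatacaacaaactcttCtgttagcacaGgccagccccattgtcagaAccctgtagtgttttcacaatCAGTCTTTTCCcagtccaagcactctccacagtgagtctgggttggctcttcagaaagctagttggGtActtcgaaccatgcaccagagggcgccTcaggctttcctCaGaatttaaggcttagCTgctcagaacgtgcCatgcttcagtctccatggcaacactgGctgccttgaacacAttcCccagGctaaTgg
Glipr1l3: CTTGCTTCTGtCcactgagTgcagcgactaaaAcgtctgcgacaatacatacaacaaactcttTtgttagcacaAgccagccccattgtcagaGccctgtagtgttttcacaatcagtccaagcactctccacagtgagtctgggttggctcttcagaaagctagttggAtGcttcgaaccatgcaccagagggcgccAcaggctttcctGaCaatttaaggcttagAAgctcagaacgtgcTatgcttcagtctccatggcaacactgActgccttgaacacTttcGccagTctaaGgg
They matched at 271 of 289 aligned bases (93.8%), and neither holds any of the 3 motifs searched. The coding sequences matched at 92.4% of 706 aligned bases. Fragments could have been shared between such close copies, so the single values of Glipr1l1 and Glipr1l3 are uncertain and their like differences need not be independent.

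Glipr1, a p53-responsive gene with known expression in macrophages, was at 0.247 FPKM in control and 0.354 FPKM in Ptbp1_cKO, where the authors' deposited table gave q = 0.999. These values correspond to at most about 50.7 and 66.2 fragments over a group, and its exons overlap Krr1 on the opposite strand. For Glipr2, whose product sits on the Golgi membrane, the authors' deposited table gave 0.767 FPKM in control and 0.899 FPKM in Ptbp1_cKO with q = 0.943. Both genes were low beside Crisp2 and Glipr1l1, and both had the higher value in Ptbp1_cKO without passing the test.

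The LCCL-domain relatives and Pi16 had low levels of about 0.5 to 2 FPKM. In the authors' deposited table Crispld1 was at 0.598 FPKM in control and 0.759 FPKM in Ptbp1_cKO, with unadjusted p = 0.158 and q = 0.818. For Crispld2, a secreted protein of mesenchymal cells, the authors' deposited table gave nearly equal values of 1.72 and 1.76 FPKM, with q = 0.999. The deposited locus of Crispld2 covers 4.44 Mb and is shared by 210 genes, and its test statistic was 0.013. Pi16, a membrane-bound protein known from fibroblasts and heart, had 1.15 and 1.03 FPKM, and the authors' deposited table gave q = 0.999 for it. Whole testis mixes many cell types, and more cells of a type cannot be told apart from more RNA per cell for any of these genes.

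Counted over the family, 1 of the 8 tested members, Crisp1, had q under 0.05 in the authors' deposited table, against a background of 1.16% of all tested genes (0.458% called higher and 0.703% called lower). Since Crisp1 prompted the choice, nothing is read from that count. Of the other 7 tested members 0 passed, and 1, Glipr1l1, had an unadjusted p under 0.05, where 8.98% of all tested genes did (4.38% higher and 4.59% lower in Ptbp1_cKO). A p that misses the threshold does not show that these genes were equal. In 7 of the 10 members the Ptbp1_cKO value was the higher one, and in 3 the lower one, namely Crisp2, Glipr1l1 and Pi16. Without Crisp1, whose rise chose the members, the Ptbp1_cKO value was higher in 6 of 9, and these include Crisp3 and Crisp4, whose values rest on few fragments. Crisp3 and Crisp4 were not tested, and among the 7 tested members without Crisp1 it was higher in 4 and lower in 3. Over all tested genes it was higher in 11227 of 22048. On the scale of log2(FPKM + 1), with control subtracted from Ptbp1_cKO, the median difference was 0.06 over the 8 members with at least 0.1 FPKM in a group and 0.02 over the 7 without Crisp1, against 0.004 over all tested genes. The sign of the first median turned when only members of at least 1 FPKM in a group were kept (-0.083).

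**Figure D2:**
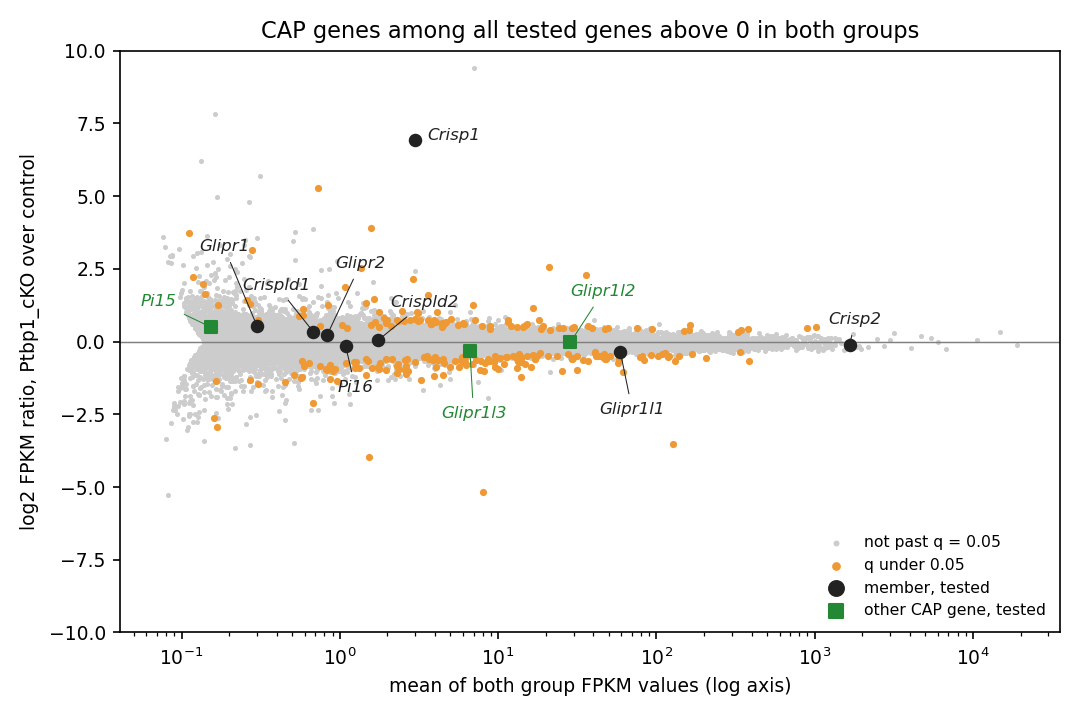
Log2 FPKM ratio of Ptbp1_cKO over control against the mean of both group values (log axis) for 22020 genes that were tested and above 0 in each group, with genes at q under 0.05 in orange, tested members as black circles and other CAP genes as green squares. Crisp1 stands at 6.94, and the other 7 tested members lie between -0.34 and 0.52 within the cloud of genes.

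Other CAP genes, taken from a list of 5, gave no call. Of the 3 tested, 0 passed and 2 had an unadjusted p under 0.05: Glipr1l3, above, and Pi15, a secreted trypsin inhibitor homologue next to Crispld1. Of all tested genes 1.16% passed and 8.98% had such a p. In the authors' deposited table Pi15 had 0.128 FPKM in control and 0.180 FPKM in Ptbp1_cKO, with unadjusted p = 0.0439 and q = 0.526. Clec18a was at 0.0905 and 0.108 FPKM. R3hdml was listed at 0 in control and held 1 fragment in Ptbp1_cKO. Neither was tested.

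No tested neighbour of Crisp1 passed the threshold. Within 250 kb of Crisp1, 2 of 21 other genes were tested and 0 had q under 0.05, where 1.16% of all tested genes did. Pgk2, a glycolytic enzyme gene of spermatogenic cells, had 357.9 FPKM in control and 303.0 FPKM in Ptbp1_cKO, a lower value there beside the higher one of Crisp1. The authors' deposited table gave Pgk2 an unadjusted p of 0.0152 and q = 0.324. The other, Gm44501, had 0.229 and 0.176 FPKM. Around the other 9 members, Crisp1 itself was the only tested neighbour past the threshold.

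Genes most like Crisp1 in their change were named by the nearest deposited log2 fold change among 18067 tested genes of at least 0.5 FPKM in a group and above 0 in both. With 2 group values per gene this likeness is a description of size only. The nearest 5 were Gm35274 (0.012 and 0.615 FPKM), Serpina16 (0.0369 and 1.42 FPKM), Rnase9 (0.0186 and 0.514 FPKM), 1700030L22Rik (0.0208 and 14.1 FPKM) and Grm7 (0.198 and 2.97 FPKM). The distance in log2 fold change ran from 1.25 for Gm35274 to 3.03 for Grm7, so no gene that met this filter was close. The control value of Gm35274 rests on about 1 fragment. Adam7, under 0.5 FPKM in both groups and so not compared, had a nearer log2 fold change, 7.82 beside 6.94 for Crisp1. Its control value corresponds to about 1.02 fragments if all came from its longest transcript. In the authors' deposited table Serpina16 and Grm7 had q = 0.00848, whereas the q was 0.802 for Gm35274, 0.289 for Rnase9 and 0.661 for 1700030L22Rik. These 3 thus had a large ratio and no call.

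Because CRISP1 is a product of the epididymal duct, 39 genes of other secreted and surface proteins known from that organ were set beside it, a list written with earlier results of these data known. Over all 39, the Ptbp1_cKO value was above control for 25, below it for 11 and listed at 0 in both groups for 3. Over all tested genes it was above control for 11227 of 22048. Of the 39, 9 were listed at 0 in control alone and could only be higher, and 13 were under 0.1 FPKM in both groups. The latter include Lcn9 and Pate4 on the higher side and Spink11 on the lower, at about 1 fragment. Of the 23 tested, 4 passed as higher and 0 as lower in the authors' deposited table, where 0.458% and 0.703% of all tested genes did. An unadjusted p under 0.05 was reached by 8 as higher and by 1, Wfdc10 (32.6 and 25.8 FPKM), as lower, beside 4.38% and 4.59% of all tested genes. The 4 were the protease inhibitor genes Spink8 (1.07 and 4.75 FPKM) and Spink10 (listed at 0 and at 0.295 FPKM) and the beta-defensin genes Defb26 (0 and 0.823 FPKM) and Defb28 (0 and 0.539 FPKM). Spink10, Defb26 and Defb28, and also Rnase12 among the 8, were listed at 0 in control. These could be tested only through their Ptbp1_cKO value and could only be called higher. Among the 8, the control values of Rnase9 and Defb22 rest on about 3.84 and 7.05 fragments. Of all 22048 tested genes, 13 were listed at 0 in control alone. The counts of 4 beside 0 and of 8 beside 1 are thus one-sided, and nothing is read from them. Other members of the list had large ratios and no call in the authors' deposited table. The sperm surface protease homologue Adam7 was at 0.00142 and 0.323 FPKM (q = 0.999), Defb22 at 0.0867 and 1.28 FPKM (q = 0.0876) and the sperm coat antigen gene Cd52, also known from lymphocytes, at 0.943 and 5.03 FPKM (q = 0.268).

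Not all epididymal genes shared this pattern. The lipocalin genes Lcn8 and Lcn10 and the beta-defensin gene Defb29 were listed at 0 in both groups. Lcn5 was listed at 0 and at 0.0126 FPKM, and the glutathione peroxidase gene Gpx5 was lower in Ptbp1_cKO, at 0.0707 and 0.0349 FPKM without a test. Together with Crisp4 at no more than 0.0304 FPKM, these low values stood beside a Crisp1 of 5.90 FPKM. The tested genes Cst11 (0.287 and 0.185 FPKM), Defb41 (0.349 and 0.245 FPKM) and Defb48 (0.253 and 0.192 FPKM) did not pass the threshold. They were among the 11 genes of the list with the lower value in Ptbp1_cKO, beside 25 with the higher value, 9 of them listed at 0 in control. The list's most abundant genes, Cst8 (249.6 and 247.6 FPKM) and Cst12 (146.6 and 128.7 FPKM), are cystatin genes that the testis also expresses, and neither passed the threshold in the authors' deposited table. They made up most of the summed FPKM of the list, which was 462.2 in control and 449.3 in Ptbp1_cKO.

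**Figure D3:**
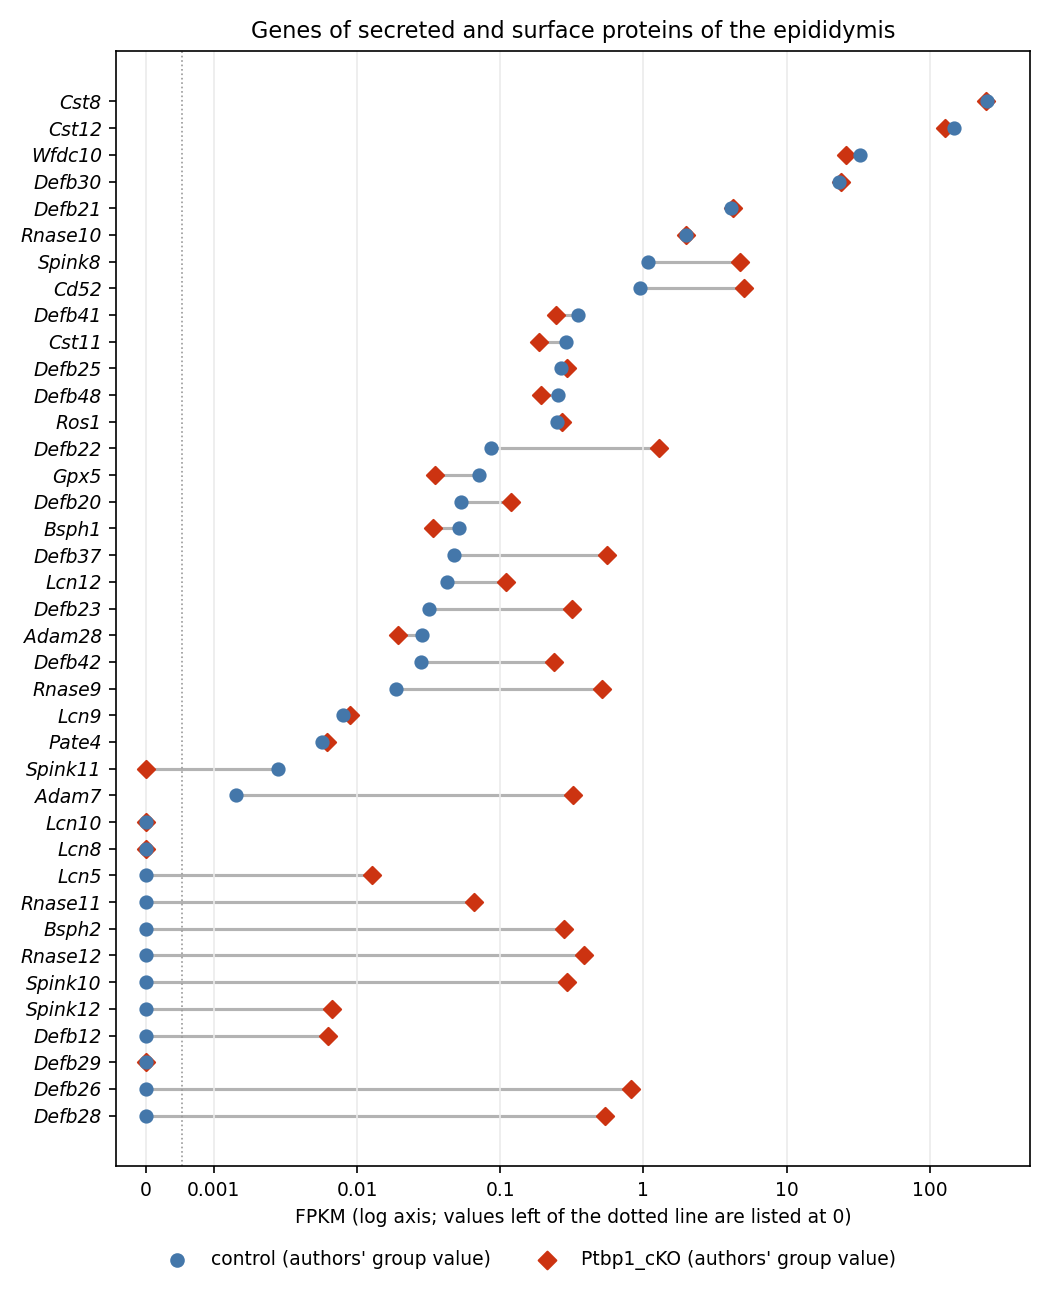
FPKM on a log axis of 39 genes of epididymal secreted and surface proteins, ordered by the control value, with circles for control and diamonds for Ptbp1_cKO, each the authors' single group value, and values listed at 0 left of the dotted line. The 6 genes above 1.9 FPKM in control have their symbols side by side, while Spink8, Cd52, Defb22, Adam7 and Rnase9 have the Ptbp1_cKO value far to the right. For 11 of the 39 genes the Ptbp1_cKO value lies to the left of control.

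Markers of the duct wall itself were compared from a list of 14 genes of rete testis, efferent duct and epididymal epithelium. Of the 12 tested, 0 passed in the authors' deposited table, and 2 had an unadjusted p under 0.05: the transcription factor genes Pax2 (1.94 and 2.72 FPKM, q = 0.0995) and Lhx1 (1.36 and 2.32 FPKM, q = 0.152). Of all tested genes 1.16% passed in either direction, and 4.38% had such a p with the higher value in Ptbp1_cKO. The Ptbp1_cKO value was above control for 10 of the 14 and below it for 4, beside 11227 above among the 22048 tested genes. The summed level was 89.2 FPKM in control and 92.5 FPKM in Ptbp1_cKO. The keratin gene Krt8 was at 2.88 and 3.30 FPKM, and the most abundant members were Aqp9 (35.0 and 37.3 FPKM) and Epcam (32.9 and 32.2 FPKM), both of which the testis also expresses. The part of such epithelium in the value of Crisp1 was not tested.

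Partners of CRISP proteins showed no call. Among 16 genes of the CatSper sperm calcium channel, of other CRISP-sensitive channels and of CRISP2-binding proteins, 0 of 16 passed in either direction in the authors' deposited table and 1, Catsper3 (29.0 and 24.0 FPKM, q = 0.383), had an unadjusted p under 0.05. Of all tested genes 1.16% passed and 8.98% had such a p. CRISP2 binds the channel subunit encoded by Catsper1, which was at 77.1 and 75.0 FPKM. Trpm8, a cation channel gene blocked by CRISP proteins, was at 1.63 and 1.34 FPKM, and the spermatid glycolytic gene Gapdhs, the most abundant of the list, at 1041 and 1146 FPKM. The FPKM was lower in Ptbp1_cKO for 10 of the 16, with a median difference of log2(FPKM + 1) of -0.06. Among all 22048 tested genes it was lower for 10821, with a median of 0.004.

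Genes of the acrosome and sperm surface, where CRISP2 and GLIPR1L1 reside, were compared over 21 genes. Of the 21, 0 passed in the authors' deposited table and 3 reached an unadjusted p under 0.05, all with the lower value in Ptbp1_cKO: the hyaluronidase gene Spam1 (47.0 and 36.2 FPKM, q = 0.0503), Spaca1 (162.8 and 134.9 FPKM) and Spaca7 (220.5 and 181.1 FPKM). Over all tested genes 1.16% passed, and 4.59% had such a p with the lower value there. The FPKM was lower for 15 of the 21 and for 10821 of the 22048 tested genes, and the median difference was -0.17, against -0.12 for Crisp2 and -0.34 for Glipr1l1 on the same log2(FPKM + 1) scale. The fusion gene Izumo1, whose product binds GLIPR1L1, was at 41.8 and 36.9 FPKM. Crisp2 and Glipr1l1 therefore lay on the side of 0 where most of this list lay.

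Markers of somatic cells were mostly higher in Ptbp1_cKO and were set beside the low somatic members. The stroma and fibroblast list had a higher FPKM for 9 of 10 genes and a median difference of 0.28, and Dcn (24.8 and 35.4 FPKM) and Col1a1 passed the threshold. Pi16 and Crispld2, both known from fibroblasts, differed by -0.08 and 0.02 on that scale. For macrophages and leukocytes 12 of 13 were higher with a median of 0.31, beside 0.12 for Glipr1. That scale adds 1 to each FPKM and understates the change of a low gene such as Glipr1. With 0.1 added instead, the median was 0.38 beside 0.39 for Glipr1, and with 0.01 it was 0.39 beside 0.50. The smaller difference of Glipr1 thus depended on the pseudocount. In this list C1qb (11.8 and 16.8 FPKM), Fcer1g (3.74 and 6.39 FPKM) and Ltf (listed at 0 and at 1.10 FPKM) passed. LTF is also known as a secretion of the male tract. Medians were 0.18 for Sertoli cells (14 of 15 higher, with Clu past the threshold), 0.16 for peritubular myoid cells (6 of 7 higher), 0.10 for endothelial cells (7 of 8 higher) and -0.04 for Leydig cells (4 of 8 higher, with Insl3 past the threshold). With a normal p computed from the deposited statistic and adjusted over all tested genes, 0 of these somatic calls were kept. For Ltf, listed at 0 in control, no such p could be computed, and it could only be called higher. In the authors' deposited table the leukocyte gene Mrc1 (8.33 and 6.73 FPKM) and the Leydig gene Star (85.5 and 63.6 FPKM) were lower in Ptbp1_cKO. Their unadjusted p was 0.0105 and 0.0149. With the higher value there, 6 of 13 leukocyte, 5 of 10 stroma and 4 of 15 Sertoli genes had an unadjusted p under 0.05. So did 3 of 8 Leydig, 1 of 8 endothelial and 0 of 7 peritubular myoid genes. Of all tested genes 4.38% had such a p with the higher value in Ptbp1_cKO, and 0.458% passed as higher. Beside the counts of higher genes given here, the Ptbp1_cKO value was above control for 11227 of all 22048 tested genes. The Sertoli, Leydig and germ cell genes named here were present in both groups, and the part of these cell types in the values of the CAP genes was not tested. For Ptbp1 itself the authors' deposited table gave 49.97 and 46.66 FPKM with q = 0.999, a whole-tissue level that does not check the labels.

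**Figure D4:**
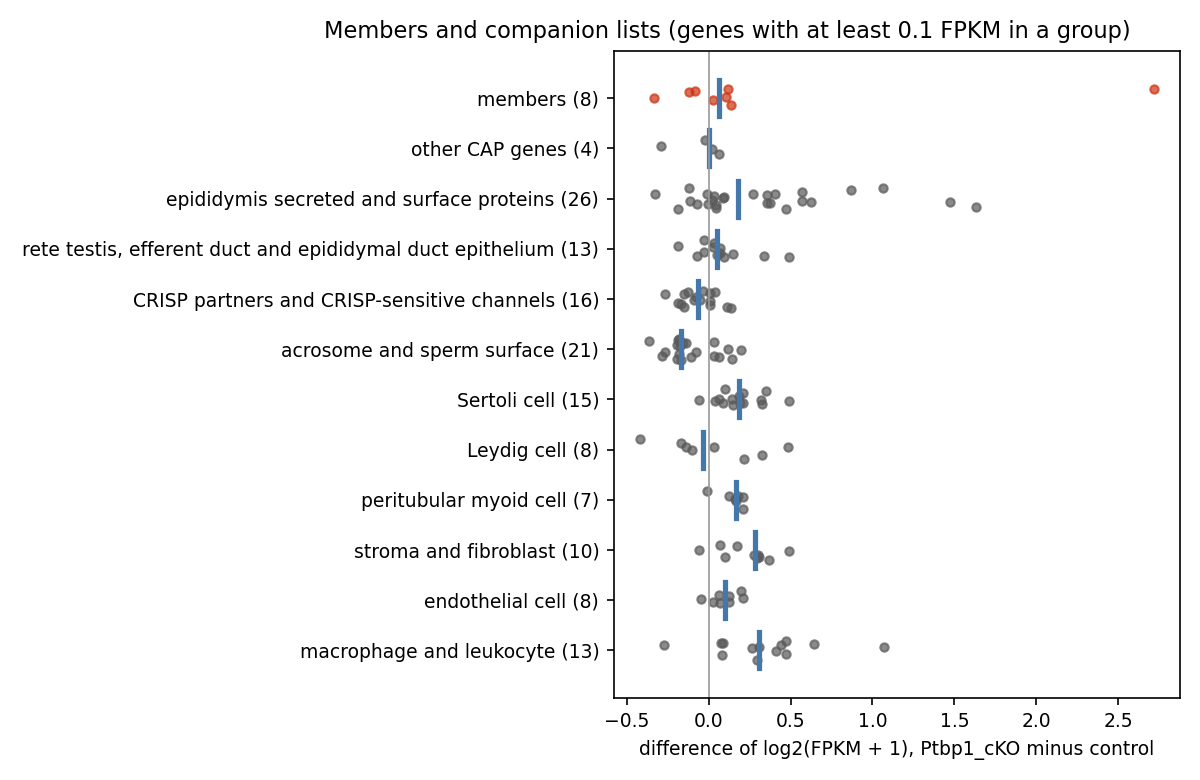
Difference of log2(FPKM + 1), Ptbp1_cKO minus control, for each gene with at least 0.1 FPKM in a group (points) in the members and 11 companion lists, with the number of genes in brackets and a blue bar at the median. One member, Crisp1, lies at 2.72, the acrosome list has its median at -0.17 and the stroma list at 0.28.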

How the data were processed

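Groups were taken from the library titles. Per the labels' protocols, RNA of whole testes was made into stranded libraries with the TruSeq kit. Per the submitters' processing notes the build was mm10, and the tools named without role or setting were Cuffdiff, Cufflinks, STAR 2.6.1d, Trimmomatic 0.38 and bcl2fastq 2.20. The sources used here do not give the Cuffdiff version, its normalisation, its use of strand or the annotation. The deposited table holds 1 FPKM value per group, made by the authors from 3 libraries. Per the file headers it also holds the log2 fold change, a test statistic (a score with a sign), and the p-value and q-value, which the authors obtained with Cuffdiff. The deposited q equalled Benjamini-Hochberg adjustment over the 22048 tested genes within 5.20e-07.

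The main test was the deposited one of Cuffdiff, with q under 0.05 as the threshold for genes whose status was OK. The members and lists were chosen with earlier results of these data known. No test over a list was made: lists are described by counts and by the median difference of log2(FPKM + 1) over genes with at least 0.1 FPKM in a group, a scale that understates the change of low genes. The genes named were the 10 members, 5 other CAP genes, list members past the threshold and the 2 most abundant of a list. Tested neighbours past the threshold within 250 kb were also named. So were the 5 genes nearest to Crisp1 in log2 fold change among those of at least 0.5 FPKM in a group. Others were chosen after their values were seen. Alternatives were a normal p from the statistic, other thresholds, pseudocounts, filters and a centring.

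The weight of 1 fragment was read from low values of single-exon, single-transcript genes of 1500 to 6000 bases, with 265 bases deducted from the length in control and 264 in Ptbp1_cKO, and the fit was tested on simulated data. The 3 weights per group stood for 66500000, 73000000 and 87000000 fragments in control and 65100000, 66700000 and 72000000 in Ptbp1_cKO, if a group value is the mean of 3 libraries. A count of 3 fragments in 1 library came, for an effective length of 1 kb, to no more than 0.0150 FPKM (control) or 0.0154 FPKM (Ptbp1_cKO). Gene positions are 1-based from GENCODE release M21, which held 98.6% of the deposited identifiers. Promoter windows came from RefSeq (GRCm38.p6) and matched 8 of the 10 members, all but Crispld1 and Glipr1. Sequences were aligned globally with Biopython 1.88. Computations used Python 3.11.15, pandas 2.3.3, numpy 2.4.6 and scipy 1.17.1.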

Additional observations from a re-analysis of the deposited data

How the results depend on the processing

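Crisp1 was the 1 member past the threshold with the deposited q under 0.05, with q under 0.01, with a normal p from the statistic and with genes of at least 1 FPKM. An unadjusted p under 0.05 gave 2, adding Glipr1l1. Crisp1 met the filter of 1 FPKM only through its Ptbp1_cKO value. Since its rise prompted the choice of the members, nothing is read from its call under any of these settings. The members' median difference of 0.06 was 0.12 with a pseudocount of 0.1, 0.13 with 0.01 and 0.034 without the filter on FPKM, and it turned to -0.083 with a filter of 1 FPKM, where the low members drop out by construction. The same filter turned the median of the members without Crisp1 to -0.10, of the other CAP genes to -0.15 and of all tested genes to -0.0044. Centring on all genes shifted values by 0.004 and reversed no member. Over all tested genes 256 calls became 19 with the normal p, 130 at q under 0.01 and 1979 with the unadjusted p. The 4 calls of the epididymis list became 1, Spink8, with the normal p, which cannot be computed for the 3 genes listed at 0 in control, and 1 at 1 FPKM. Calls in the Sertoli, Leydig, stroma and leukocyte lists went to 0 with the normal p, which cannot be computed for Ltf. The cause of these differences was not tested beyond what is stated. No replicate could be left out, and no paired analysis was possible because the table gives 1 value per group. Depth limited Crisp3, at 1 fragment per group, and Crisp4.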

Other observations

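A large ratio in the deposited table was not by itself a call. Among tested genes above 0 in both groups and with at least 0.1 FPKM in a group, 24 had a Ptbp1_cKO value at least 8 times the control value, and 5 of these passed the deposited threshold, with a median q of 0.751 over the 24. In the other direction 10 genes were at least 8 times lower and 3 passed. Crisp1 was among the 5. A higher ratio than that of Crisp1 was found for 2 genes, the epididymal gene Adam7 (0.00142 and 0.323 FPKM) and the non-coding 1700030L22Rik (0.0208 and 14.1 FPKM), whose q was 0.999 and 0.661 in the authors' deposited table. The control value of Adam7 corresponds to about 1.02 fragments if all came from its longest transcript. Values of single libraries were not analysed here. These genes were chosen after their values were seen.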
